A study of Mus musculus with 6 samples.

Results

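Cytosolic aminoacyl-tRNA synthetases and a set of amino acid synthesis and transport genes that the transcription factor ATF4 is known to drive were followed in RAW 264.7 cells, a mouse macrophage line. Treated cells had received 100 ng/ml LPS (lipopolysaccharide) and 100 pM LBP, the protein that binds LPS, for 48 h, and untreated cells had been cultured for 48 h. Both RNAs were hybridised together on 6 two-colour arrays, with the treated RNA in Cy5 on 3 arrays and in Cy3 on the other 3 arrays. Each dye orientation had a set 1, a set 2 and a set 3, and the orientations are called Cy5 arrays and Cy3 arrays below, after the dye of the treated RNA. Probes were assigned by gene symbol to a list of 34 names (20 synthetases, 6 enzymes of serine, asparagine and one-carbon metabolism, 5 transporters, and the transaminases Gpt2 and Got1 with Sesn2). Probes were found for 24 of the 34, namely 27 of 16281 probes and 24 of 10698 named genes. The synthetases Aars, Dars, Farsa, Gars, Kars, Mars1, Sars, Tars and Yars, and Gpt2, had no probe under these symbols and were not analysed here.

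Synthetases join amino acids to their tRNAs before protein synthesis. When amino acids run short or other stresses act, kinases phosphorylate the initiation factor eIF2, general translation slows and ATF4 is made. ATF4 then switches on genes that make, import and charge amino acids, by binding C/EBP-ATF response elements. Mouse macrophages activated by LPS are known to consume arginine to make nitric oxide.

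Values are on the log2 scale, treated divided by untreated, and come from 1 deposited ratio per probe and array. A ratio gives no level, so genes cannot be ranked by abundance and the macrophage label could not be checked against marker levels. In RNA from whole cultures, fewer cells of a type and less RNA per cell cannot be told apart. Of 6 macrophage markers, 4 could be tested, and they lay between -0.53 and 0.94, with Adgre1 higher at 0.94 ± 0.09 and Csf1r lower at -0.53 ± 0.22. Among 8 markers of other cell types, 7 could be tested and 2 were higher in treated cells, the fibroblast proteoglycan Dcn at 2.68 ± 0.95 and the B cell receptor component Cd79a at 0.63 ± 0.11 (SD, n = 3 sets). Their part in the results below was not tested. The sign of the ratio was read from the labels and from Il1b, Il6, Tnf and Nos2, genes known to be induced by LPS, which were above 0 on 6 of 6 arrays. Exact zeros, 7.97% to 17.8% of the values on an array, were taken as missing. Means are over the 3 sets, each the mean of both orientations, and adjusted p-values come from limma over all 9160 genes that could be tested (Benjamini-Hochberg), with 0.05 as the threshold. Nothing in the labels says that the sets were separate cultures, so these p-values measure the spread between sets, which may be technical. The log base is not stated, and fold changes assume 2.

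RefSeq promoter windows (GRCm38.p6, 250 bases before to 50 after an annotated start) were matched by symbol for 15 of the 24 members on the array. They were searched on both strands for the core of the C/EBP-ATF response element, TGATGNAA (TTNCATCA on the other strand), because this is the known ATF4 binding element. Of the 15 members, 4 held a match (26.7%), against 1304 of 32851 windows of the same length (3.97%) and 1219 of 27025 genes with a window (4.51%). The 4 windows are shown with the match in capitals. They belong to Asns and Slc1a4, which rose in treated cells, and to Iars and Got1, which did not pass the test.
Asns, chr6:7693160-7693459, minus strand: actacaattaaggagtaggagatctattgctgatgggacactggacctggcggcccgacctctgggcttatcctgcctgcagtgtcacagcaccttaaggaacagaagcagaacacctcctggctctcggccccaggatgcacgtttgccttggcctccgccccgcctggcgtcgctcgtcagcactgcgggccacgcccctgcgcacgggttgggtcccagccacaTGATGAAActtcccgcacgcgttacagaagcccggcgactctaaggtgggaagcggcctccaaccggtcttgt
Slc1a4, chr11:20332664-20332963, minus strand: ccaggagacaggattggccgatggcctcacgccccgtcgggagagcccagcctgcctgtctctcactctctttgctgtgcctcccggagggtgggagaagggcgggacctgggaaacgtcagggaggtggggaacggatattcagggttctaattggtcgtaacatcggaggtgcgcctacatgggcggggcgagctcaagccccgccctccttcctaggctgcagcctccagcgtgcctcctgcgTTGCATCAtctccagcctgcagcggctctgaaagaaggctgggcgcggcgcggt
Iars, chr13:49681880-49682179, plus strand: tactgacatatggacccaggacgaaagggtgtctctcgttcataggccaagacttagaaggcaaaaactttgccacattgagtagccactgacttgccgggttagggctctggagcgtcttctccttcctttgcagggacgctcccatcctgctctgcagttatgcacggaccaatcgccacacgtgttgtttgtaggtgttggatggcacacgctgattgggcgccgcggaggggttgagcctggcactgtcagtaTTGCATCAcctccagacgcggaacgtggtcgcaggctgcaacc
Got1, chr19:43524556-43524855, minus strand: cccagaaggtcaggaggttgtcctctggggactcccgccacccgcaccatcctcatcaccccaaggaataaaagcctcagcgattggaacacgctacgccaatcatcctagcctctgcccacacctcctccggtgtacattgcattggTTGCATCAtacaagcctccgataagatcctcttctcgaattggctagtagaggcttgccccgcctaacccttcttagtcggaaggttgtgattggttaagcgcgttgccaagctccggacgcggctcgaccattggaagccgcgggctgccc
The match began 23 bases before the annotated start in Asns, 4 before it in Slc1a4 and 102 before it in Got1, and at base 8 after the start in Iars. A match is a description of these letters and not a bound site. Among members with a window, it was present in 2 of 7 that rose, 0 of 1 that fell and 2 of 6 that did not pass.

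After LPS and LBP, 9 of the 23 members that could be tested rose and 3 fell. The shares were 39.1% and 13.0%, against 15.0% of all 9160 genes higher and 12.8% lower. The median ratio of the 23 was 0.16, against -0.01 over all genes. Asns (2.03-fold) and Psph (1.94-fold) were among the largest increases, as was Slc1a4 (2.03-fold) by its complete probe, but with its second probe included and zeros kept its log2 ratio was 0.45, below those of 6 other members. The changes ran in both directions within the synthetases, the serine, asparagine and one-carbon enzymes, and the transporters alike. All 9 members that rose were above 0 on every array, which passing upward makes likely. Over all genes, passing or not, 16.4% were above 0 on every array, so that share is no like comparison for the 9. Iars, a member that did not pass, was also above 0 on every array. Of the 11 that did not pass, 10 had arrays on both sides of 0. Their means lay between -0.16 and 0.24, and the 95% intervals between -0.37 and 0.43. Counting by group, 3 of 11 synthetases rose and 1 fell, 3 of 5 serine, asparagine and one-carbon enzymes rose and 1 fell, and 2 of 5 transporters rose and 1 fell. The group medians were 0.16, 0.63 and 0.02. Differences between the groups were not tested.

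**Figure D1:**
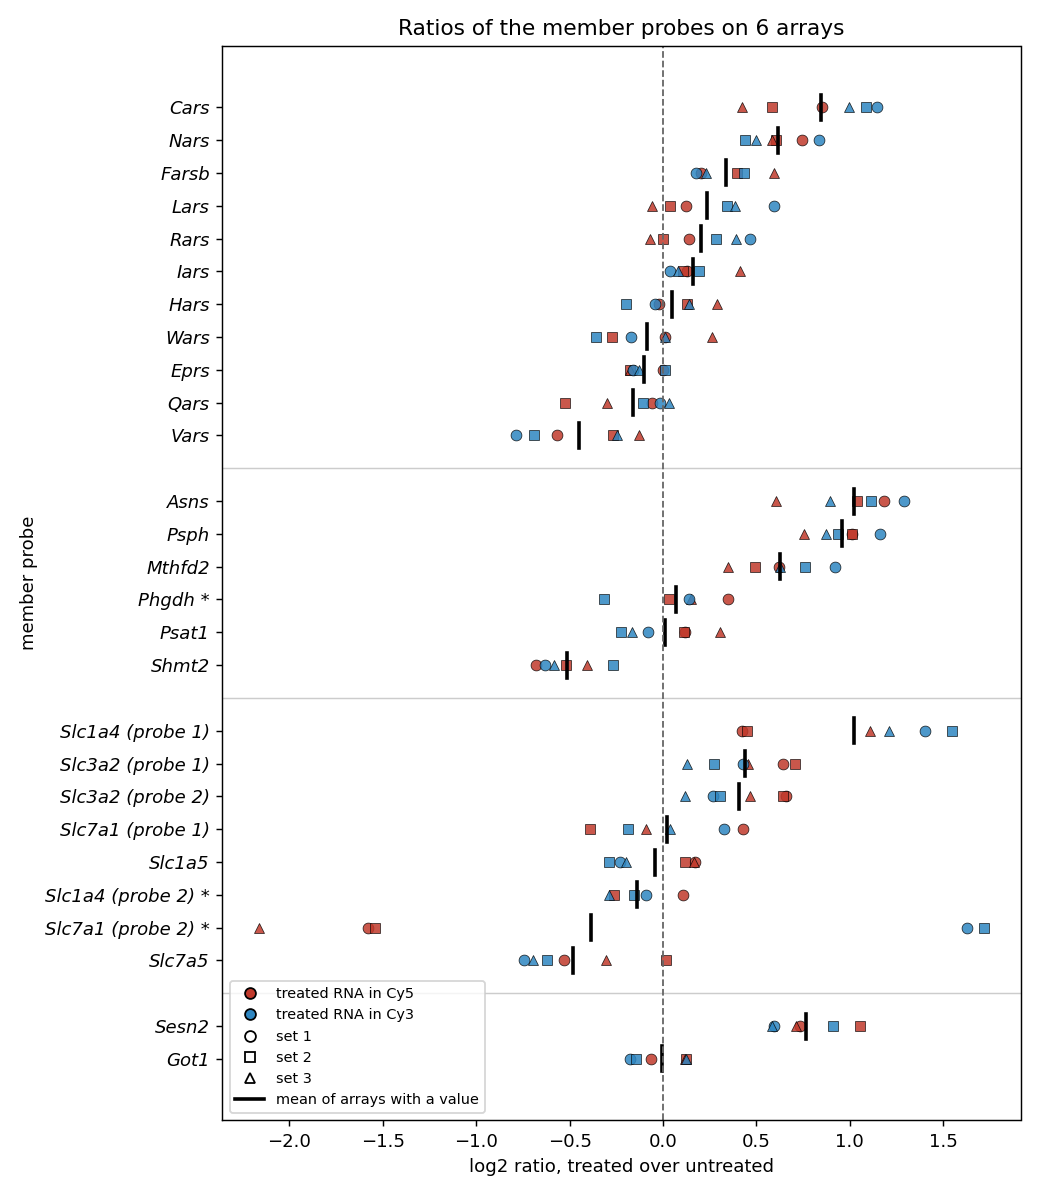
Log2 ratio of treated over untreated cells (x axis) for each member probe (y axis) on the 6 arrays, red for treated RNA in Cy5 and blue for treated RNA in Cy3, with the marker shape giving the set and a bar at the mean of the arrays with a value. An asterisk marks a probe with 1 array listed at 0. Asns, Psph and Sesn2 lie above 0 on all arrays in both colours, whereas probe 2 of Slc7a1 lies near -1.76 in one orientation and 1.67 in the other.

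Among the synthetases, the cysteine enzyme Cars had the largest ratio. With treated RNA in Cy5 it read 0.85, 0.59 and 0.42 in sets 1, 2 and 3, and with treated RNA in Cy3 it read 1.15, 1.09 and 0.99. All 6 arrays were above 0, and every Cy3 array read higher than every Cy5 array. The mean was 0.85 ± 0.15 (SD, n = 3 sets; 1.80-fold; limma, adjusted p = 3.54e-04). Nars, which charges tRNA with asparagine, read 0.74, 0.61 and 0.58 on the Cy5 arrays, and 0.84, 0.44 and 0.50 on the Cy3 arrays. The 2 orientations overlapped, and Nars rose by 0.62 ± 0.15 (limma, adjusted p = 0.0018). Nars and Asns, the enzyme that makes asparagine, therefore both passed upward.

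Farsb, the beta subunit of the phenylalanine enzyme, read 0.20, 0.40 and 0.59 on the Cy5 arrays, and 0.18, 0.43 and 0.23 on the Cy3 arrays. Set 1 was lowest in both orientations. The mean of 0.34 ± 0.13 passed (limma, adjusted p = 0.0232), but not without set 2 (limma, adjusted p = 0.0969) or set 3 (limma, adjusted p = 0.0989). Farsb did not pass over the Cy5 arrays alone (limma, adjusted p = 0.0566) or the Cy3 arrays alone (limma, adjusted p = 0.0821). With zeros kept as values it did not pass either (limma, adjusted p = 0.0626). Farsb has a value on every array, so keeping zeros left its ratio unchanged and refitted it among 10698 genes. The valine enzyme Vars was the synthetase that fell. It read -0.57, -0.27 and -0.13 on the Cy5 arrays, and -0.79, -0.69 and -0.25 on the Cy3 arrays, all below 0 and closest to 0 in set 3. Vars averaged -0.45 ± 0.25 (limma, adjusted p = 0.0171), and did not pass without set 1 (limma, adjusted p = 0.0647) or without set 2 (limma, adjusted p = 0.0604). Nor did it pass over the Cy5 arrays alone (limma, adjusted p = 0.113) or with zeros kept (limma, adjusted p = 0.0956). Vars too has a value on every array, so keeping zeros left its ratio unchanged.

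The other 7 synthetases did not pass. The leucine enzyme Lars, which is also known as a leucine sensor for mTORC1, read 0.13, 0.04 and -0.06 on the Cy5 arrays, and 0.59, 0.34 and 0.39 on the Cy3 arrays. The Cy5 arrays lay around 0 and the Cy3 arrays above all of them, and the mean was 0.24 ± 0.11 (limma, adjusted p = 0.072). The arginine enzyme Rars read 0.14, 0.00 and -0.07 on the Cy5 arrays, and 0.47, 0.28 and 0.39 on the Cy3 arrays, the same split, with a mean of 0.20 ± 0.09 (limma, adjusted p = 0.11). Both have values on all 6 arrays, and both passed when the 6 arrays were fitted singly with a dye term and no set term (limma, adjusted p = 0.0215 for Lars and 0.0377 for Rars), which called 34.7% of all genes. The same form of fit over probes that may lack arrays called 29.9% of all genes and again Lars (limma, adjusted p = 0.0265) and Rars (limma, adjusted p = 0.0459). With the set as a block in the 6-array fit, which called 27.2% of all genes, Lars passed (limma, adjusted p = 0.0459).

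The isoleucine enzyme Iars was above 0 on all arrays, between 0.04 and 0.41, and averaged 0.16 ± 0.08. The glutamine enzyme Qars read -0.06, -0.53 and -0.30 on the Cy5 arrays, and -0.01, -0.11 and 0.03 on the Cy3 arrays, and averaged -0.16 ± 0.14. It read lower on the Cy5 array than on the Cy3 array of every set. Eprs, which carries both the glutamate and the proline activity, averaged -0.10 ± 0.04. The histidine enzyme Hars stood at 0.05 ± 0.14. Wars, the tryptophan enzyme, is known in human cells as an interferon-gamma-induced gene. It read 0.01, -0.27 and 0.26 on the Cy5 arrays, and -0.17, -0.36 and 0.01 on the Cy3 arrays, and its mean of -0.09 ± 0.23 did not pass, with a 95% interval of -0.32 to 0.15.

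In mammals some synthetases are bound in a large multisynthetase complex, while others are free. The 5 measured enzymes of the complex (Eprs, Iars, Lars, Qars and Rars) lay between -0.16 and 0.24 and 0 of them passed the limma test, though Lars and Rars, 2 of the 5, had an unadjusted p under 0.05. The same fit put 27.8% of all genes past the threshold. The complex scaffold genes Aimp1 (-0.04 ± 0.11) and Eef1e1 (-0.01 ± 0.07) did not pass either. Of the 6 measured synthetases outside the complex, Cars, Nars and Farsb rose, Vars fell, and Hars and Wars did not pass. The difference between the 5 and the 6 was not tested.

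Mitochondrial synthetases, which charge tRNAs for the organelle's own ribosomes, had 1 of 5 tested genes higher and 2 lower, against 15.0% and 12.8% of all genes. Fars2, the phenylalanine enzyme, read 0.94, 1.14 and 0.84 on the Cy5 arrays, and 1.36, 1.62 and 1.50 on the Cy3 arrays. All arrays were above 0, and the mean of 1.23 ± 0.13 (2.35-fold; limma, adjusted p = 4.08e-05) was higher than that of any cytosolic synthetase measured. The glutamate enzyme Ears2 fell by 0.78 ± 0.18 (limma, adjusted p = 7.33e-04), below 0 on every array. The cysteine enzyme Cars2 averaged -0.32 ± 0.13 (limma, adjusted p = 0.0291) over probes at -0.43 and -0.21. It did not pass without set 1 (limma, adjusted p = 0.132) or without set 3 (limma, adjusted p = 0.102). Nor did it pass over the Cy5 arrays alone (limma, adjusted p = 0.259) or with zeros kept (limma, adjusted p = 0.0704). Both Cars2 probes have a value on every array, so keeping zeros left the ratio unchanged. Wars2 (0.03 ± 0.16) and Hars2 (-0.17 ± 0.03) did not pass, and Sars2 was listed at 0 on all arrays.

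Asparagine synthetase, encoded by Asns, makes asparagine from aspartate and glutamine and is a standard readout of ATF4. It read 1.18, 1.04 and 0.61 on the Cy5 arrays, and 1.29, 1.11 and 0.90 on the Cy3 arrays. All arrays were well above 0, and set 3 was lowest in both orientations. Asns rose by 1.02 ± 0.25 (2.03-fold; limma, adjusted p = 3.46e-04), and ranked 265 from the top among 9160 genes by mean ratio.

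The serine pathway makes serine from a glycolytic intermediate in 3 steps, through Phgdh, Psat1 and Psph. The last enzyme, Psph, read 1.01, 1.01 and 0.75 on the Cy5 arrays, and 1.16, 0.94 and 0.87 on the Cy3 arrays. The arrays were high in both orientations, and Psph rose by 0.96 ± 0.14 (1.94-fold; limma, adjusted p = 1.74e-04). The middle enzyme, Psat1, read 0.12, 0.11 and 0.30 on the Cy5 arrays, but -0.08, -0.22 and -0.17 on the Cy3 arrays. Its sign followed the dye on every array, as in 6.64% of all genes, and the mean of 0.01 ± 0.06 did not pass, with a 95% interval of -0.18 to 0.20. Phgdh, the first enzyme, read 0.35, 0.03 and 0.15 on the Cy5 arrays, and 0.14 and -0.31 on the Cy3 arrays, with set 3 listed at 0. It was therefore not tested in the main analysis, and the fit that allowed missing arrays gave 0.04 (limma, adjusted p = 0.784). Of the pathway's 3 genes, Psph alone passed.

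Mthfd2 and Shmt2, one-carbon enzymes of mitochondria, moved in opposite directions. Mthfd2, which oxidises methylene-tetrahydrofolate there, read 0.62, 0.49 and 0.35 on the Cy5 arrays, and 0.92, 0.76 and 0.63 on the Cy3 arrays. It rose by 0.63 ± 0.14 (1.55-fold; limma, adjusted p = 0.00156) and lay above 0 on all arrays. Shmt2, which takes the one-carbon unit from serine, read -0.68, -0.52 and -0.41 on the Cy5 arrays, and -0.63, -0.27 and -0.59 on the Cy3 arrays. All arrays were below 0, and it fell by 0.52 ± 0.13 (1.43-fold lower; limma, adjusted p = 0.00387). The cytosolic form, Shmt1, lay between -0.97 and -0.35 and fell by 0.72 ± 0.09 (limma, adjusted p = 5.65e-04). The 95% intervals of Mthfd2 (0.42 to 0.83) and Shmt2 (-0.72 to -0.31) did not overlap.

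**Figure D2:**
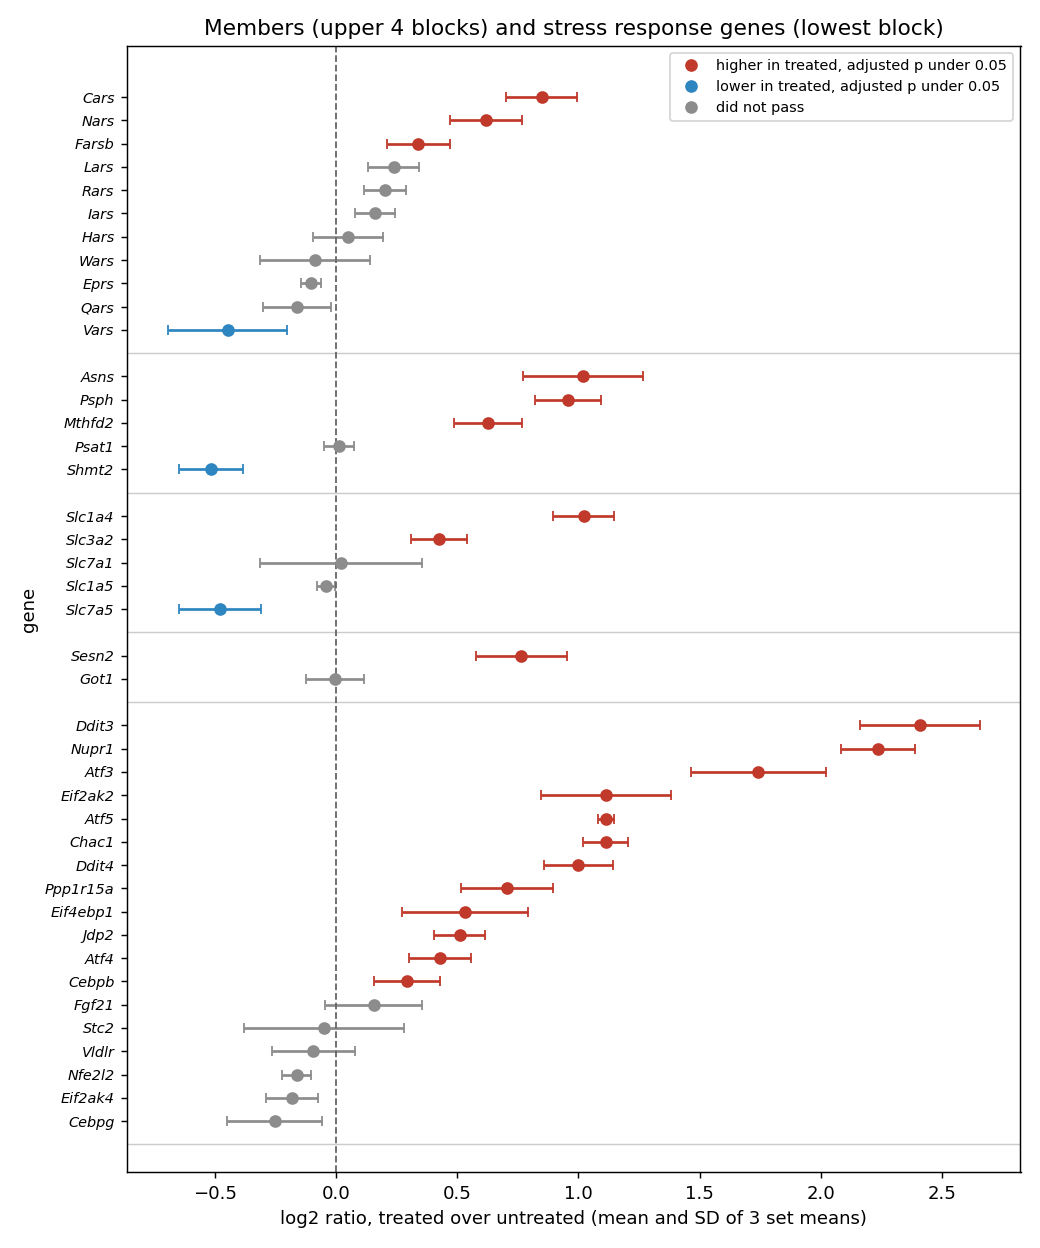
Mean log2 ratio of treated over untreated cells with the SD of the 3 set means (x axis) for each tested gene (y axis), in blocks of synthetases, serine, asparagine and one-carbon enzymes, transporters, transaminase and Sesn2, and stress response genes. Red genes passed upward, blue genes downward and grey genes did not pass. Each of the upper 3 blocks holds red, blue and grey genes, and the stress response block reaches 2.41 (Ddit3).

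Slc1a4 and Slc1a5 encode related exchangers of alanine, serine, cysteine and other neutral amino acids. The complete probe of Slc1a4 read 0.42, 0.45 and 1.11 on the Cy5 arrays, and 1.40, 1.54 and 1.21 on the Cy3 arrays. All arrays were above 0, with sets 1 and 2 much lower in Cy5 than in Cy3. The mean was 1.02 ± 0.13 (2.03-fold; limma, adjusted p = 1.13e-04), and 0.66 over the Cy5 arrays alone. The second probe of Slc1a4 disagreed, at 0.11 and -0.26 on the Cy5 arrays and -0.09, -0.16 and -0.29 on the Cy3 arrays, with 1 array listed at 0. With that probe included and zeros kept, the gene's ratio was 0.45 (limma, adjusted p = 0.0224), so its size depends on the probe. Slc1a5 read 0.17, 0.12 and 0.17 on the Cy5 arrays, but -0.23, -0.29 and -0.20 on the Cy3 arrays. The sign followed the dye in every set, and the mean of -0.04 ± 0.04 did not pass.

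Slc3a2 encodes the heavy chain that carries several light chains to the cell surface, and Slc7a5 is its light chain for large neutral amino acids such as leucine. The 2 probes of Slc3a2 gave 0.44 and 0.41. The first read 0.64, 0.71 and 0.46 on the Cy5 arrays, and 0.43, 0.27 and 0.13 on the Cy3 arrays. Slc3a2 rose by 0.42 ± 0.11 (1.34-fold; limma, adjusted p = 0.00831), and over the Cy3 arrays alone its ratio of 0.25 did not pass (limma, adjusted p = 0.105). Slc7a5 read -0.53, 0.02 and -0.30 on the Cy5 arrays, and -0.74, -0.62 and -0.70 on the Cy3 arrays. It fell by 0.48 ± 0.17 (1.39-fold lower; limma, adjusted p = 0.00699), with 5 of 6 arrays below 0, and over the Cy5 arrays alone its ratio of -0.27 did not pass (limma, adjusted p = 0.191). Heavy chain and light chain thus changed in opposite directions.

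Other light chains of the same heavy chain were in the list of other amino acid transporters, where 2 of 10 tested genes rose and 1 fell, shares near the 15.0% and 12.8% of all genes. Slc7a11, the cystine-glutamate exchanger, read 1.33, 1.05 and 0.80 on the Cy5 arrays, and 0.87, 0.59 and 0.23 on the Cy3 arrays, and rose by 0.81 ± 0.29 (limma, adjusted p = 0.00166). Its second probe had values on 3 arrays, -0.53 and -0.86 with treated RNA in Cy5 and 1.25 with it in Cy3, so its sign followed the dye. With zeros kept the mean over both probes was 0.39 (limma, adjusted p = 0.0473). Slc7a7, an exchanger of cationic amino acids, rose by 0.81 ± 0.26 (limma, adjusted p = 0.00125). Slc7a8, another of these light chains, averaged 0.18 ± 0.14 and did not pass (limma, adjusted p = 0.163). Its other probe had values on 2 Cy5 arrays, -1.21 and -0.38, and was not used. The glutamate carrier Slc1a2 averaged -0.28 ± 0.06 (limma, adjusted p = 0.0371). Its probes disagreed, at -0.03, -0.04 and -0.76, and leaving out any 1 set ended the call (limma, adjusted p = 0.0906 to 0.162), as did taking the median of its probes, -0.09 (limma, adjusted p = 0.518). Slc43a1 averaged -0.25 ± 0.20 and did not pass.

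Slc7a1, the cationic amino acid transporter that brings in arginine, had 2 probes. The complete one read 0.43, -0.39 and -0.09 on the Cy5 arrays, and 0.32, -0.19 and 0.04 on the Cy3 arrays, with set 1 above 0 and set 2 below it in both orientations. Its mean of 0.02 ± 0.34 did not pass, with a 95% interval of -0.27 to 0.31. The other probe read -1.58, -1.54 and -2.16 on the Cy5 arrays, and 1.63 and 1.72 on the Cy3 arrays, with 1 array listed at 0. Every value was far from 0, and the sign followed the dye and not the treatment. The value above leaves this probe out; with it included the gene's ratio was -0.15 both with zeros kept (limma, adjusted p = 0.608) and in the fit that allowed missing arrays (limma, adjusted p = 0.436).

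**Figure D3:**
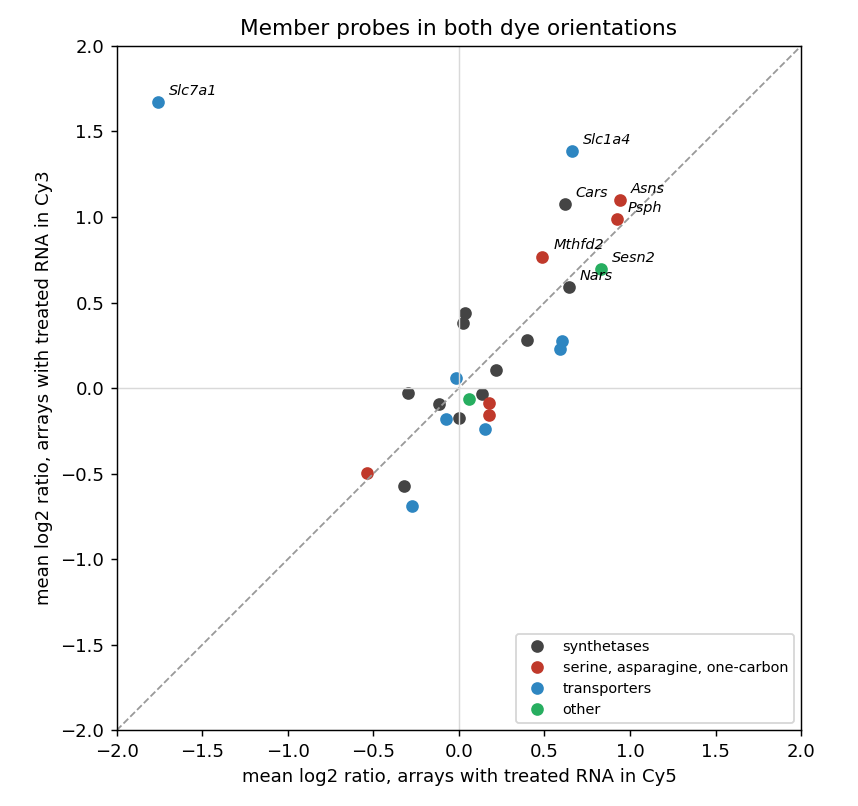
Mean log2 ratio of treated over untreated cells on arrays with treated RNA in Cy5 (x axis) and in Cy3 (y axis) for each member probe, coloured by group, with the dashed line at equality. Asns, Psph, Sesn2 and Nars lie near the line, Slc1a4 and Cars lie above it, and the Slc7a1 probe at -1.76 and 1.67 lies at the upper left.

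Sesn2 encodes sestrin 2, a leucine-binding inhibitor of mTORC1 signalling, and is known to be induced by ATF4. It read 0.74, 1.05 and 0.71 on the Cy5 arrays, and 0.60, 0.91 and 0.58 on the Cy3 arrays. Set 2 was highest in both orientations, and Sesn2 rose by 0.76 ± 0.19 (1.70-fold; limma, adjusted p = 8.61e-04). Got1, the cytosolic aspartate transaminase, lay between -0.17 and 0.12 and averaged 0.00 ± 0.12.

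Genes of the integrated stress response, the pathway that makes and extends the ATF4 signal, rose in 12 of 18 tested cases and fell in 0 (at an unadjusted p under 0.05, 12 were higher and 1, Cebpg, was lower). This was 66.7%, against 15.0% of all genes higher, and the list median was 0.52. Atf4 itself read 0.68, 0.38 and 0.42 on the Cy5 arrays, and 0.47, 0.40 and 0.23 on the Cy3 arrays. All arrays were above 0, and Atf4 rose by 0.43 ± 0.13 (1.35-fold; limma, adjusted p = 0.00863). ATF4 is known to be controlled mainly at translation, which these arrays did not measure.

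The following partners and targets of ATF4 had larger ratios than Atf4. Ddit3, which encodes the stress factor CHOP, lay between 2.19 and 2.95 and averaged 2.41 ± 0.25. The stress protein gene Nupr1 lay between 1.94 and 2.52, averaged 2.24 ± 0.15 (4.71-fold; limma, adjusted p = 2.42e-06) and was the second highest of the list. The repressor Atf3 averaged 1.74 ± 0.28, Chac1, which degrades glutathione, 1.11 ± 0.09, and Ddit4, an inhibitor of mTORC1, 1.00 ± 0.14. All arrays of these genes were above 0. Of the 18 tested genes of the list, 12 rose and 6 did not pass. The 6 were Fgf21 (0.15 ± 0.20), Stc2 (-0.05 ± 0.33), Vldlr (-0.09 ± 0.17) and Nfe2l2 (-0.16 ± 0.06), with Cebpg and Eif2ak4 described below.

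Of the kinases that phosphorylate eIF2, Eif2ak2 (PKR, which senses double-stranded RNA and is interferon-induced) rose by 1.12 ± 0.27 (limma, adjusted p = 2.62e-04) over probes at 0.91 and 1.32. Another Eif2ak2 probe had a value on 1 array and was not used, and with zeros kept the ratio was 0.62 and did not pass (limma, adjusted p = 0.0555). Eif2ak4 (GCN2, which senses uncharged tRNA) averaged -0.18 ± 0.11 and did not pass, with probes at -0.28 and -0.09. Eif2ak3 (PERK, the sensor of unfolded protein in the endoplasmic reticulum) had values on 4 arrays, between -0.62 and 0.45, and was not tested. Cebpg, a dimer partner of ATF4, averaged -0.25 ± 0.20 without passing. Trib3, a further ATF4 target, was not analysed here.

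Among other enzymes of amino acid metabolism, 1 of 7 tested rose and 1 fell, shares near the 15.0% and 12.8% of all genes. The arginine-recycling enzyme Ass1 averaged 0.36 ± 0.18 (limma, adjusted p = 0.0244), with 5 of 6 arrays above 0. It did not pass without set 1 (limma, adjusted p = 0.0844) or without set 3 (limma, adjusted p = 0.107). Nor did it pass over the Cy5 arrays alone (limma, adjusted p = 0.214) or with zeros kept (limma, adjusted p = 0.0867). Ass1 has a value on every array, so keeping zeros left its ratio unchanged. Shmt1 was the 1 that fell. Aldh18a1, of proline synthesis (0.16 ± 0.16), and the glutamine synthetase Glul (-0.10 ± 0.41) did not pass.

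**Figure D4:**
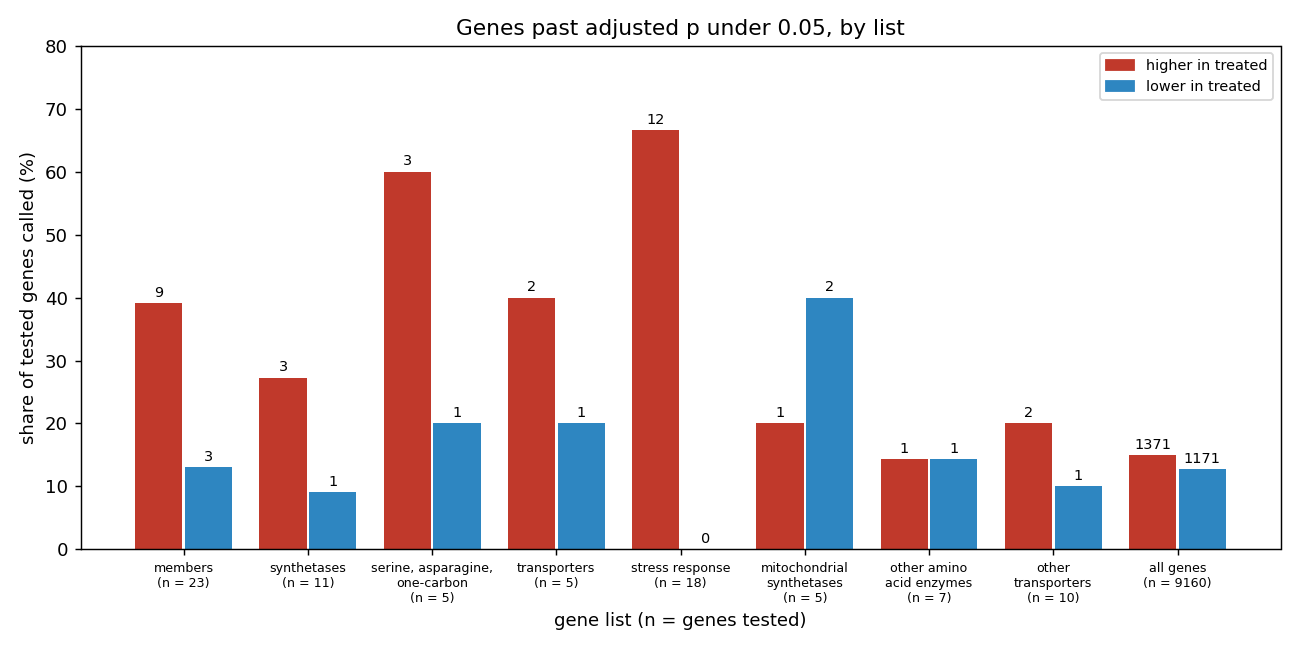
Share of tested genes past adjusted p under 0.05 (y axis, percent) in each list and over all 9160 genes (x axis), red for higher and blue for lower in treated cells, with the number of genes on each bar. The stress response list stands at 66.7% higher and 0 lower, the members at 39.1% and 13.0%, and all genes at 15.0% and 12.8%.

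The response element core TGATGNAA was also present in windows of 8 of 42 related genes outside the members (19%), against 4.51% of all genes with a window. It was found in 6 of the 15 that rose, 0 of 4 that fell, 2 of the 18 that did not pass and 0 of 5 not tested. These differences were not tested. The matches of the genes that rose are shown with their flanks and the match in capitals, for comparison with the Asns and Slc1a4 windows. Slc7a11 held 2 matches, and Slc7a7 held a further match that is not shown.
Atf3, chr1:191183428-191183451, minus strand: tctcgcacTTGCATCAccaagtcc
Chac1, chr2:119351041-119351064, plus strand: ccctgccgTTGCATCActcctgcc
Nupr1, chr7:126625565-126625588, minus strand: gggccagaTTGCATCAgacagggc
Jdp2, chr12:85599375-85599398, plus strand: gccggggcTGATGCAAcccgtccc
Slc7a11, chr3:50443645-50443687, minus strand: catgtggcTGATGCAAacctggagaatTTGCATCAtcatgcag
Slc7a7, chr14:54417930-54417953, minus strand: ctagaagcTGATGCAAcagcttcc
Vldlr and Fgf21 also held the core and did not pass. Among the genes that rose without a match in these windows were Psph, Mthfd2, Sesn2, Slc3a2 and Ddit3. Nothing follows from this about ATF4 at these genes.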

How the data were processed

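RNA of treated and untreated cells was compared on 6 two-colour arrays. The authors deposited 1 ratio per probe and array, taken here as log2 values between -5.29 and 6.12, with no intensities; the sources used here do not give the scanner, background correction or normalization, and the log base is not stated. Per the labels, the ratio is Cy5 over Cy3, so its sign was turned on the 3 arrays with treated RNA in Cy3; arrays of opposite orientation correlated between -0.66 and -0.41 before turning and those of one orientation between 0.67 and 0.77. Exact zeros were taken as missing, and 12724 of 16281 probes had a value on all arrays. Probes took their gene from the platform annotation (13738 with 1 symbol, 52 with several, 2491 with none). Complete probes of a gene were averaged, both orientations of a set were averaged, and the 3 set means were fitted against 0 with limma 3.58.1 in R 4.3.3, with Benjamini-Hochberg adjustment over 9160 genes. The fit was tested on simulated data with independent arrays, which held no correlation within sets. Array number limits the precision.

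The members and related lists were chosen with earlier results of these data known. Array values are given for each member past the threshold and for the 3 others with the largest mean in size. From each related list the 2 highest and 2 lowest genes are named, with stress response genes, Slc7a11 and Ass1. Wars, Psat1, Phgdh, Slc1a5, Slc7a1, Slc7a8, Stc2, Nfe2l2 and genes with a motif match or of a small list were added after their values were seen. Deviations of same-numbered sets correlated at 0.54, 0.08 and 0.18 between orientations, and the consensus correlation within sets was 0.36. No value for differently numbered arrays is given beside these, so they do not show by themselves that the numbers pair the arrays. The set means nevertheless join arrays by the set number in the labels, and fits of the 6 arrays without that step are among the alternatives. Alternatives kept zeros, fitted 6 arrays with a dye term, with or without the set as a block, or without it over probes with at least 4 arrays, centred or scaled arrays, used robust eBayes, took the median of a gene's probes, left out each set, or used 1 orientation. RefSeq promoter windows are of GRCm38.p6.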

Additional observations from a re-analysis of the deposited data

Results flagged for a closer look

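Members whose sign turned with the dye were noted because the arrays of one orientation lay on one side of 0 and those of the other orientation on the opposite side. Psat1 averaged 0.18 with treated RNA in Cy5 and -0.16 with treated RNA in Cy3, and the dye effect, which is the difference of these means divided by 2, was 0.17 (limma, adjusted p = 0.142). Slc1a5 averaged 0.15 with treated RNA in Cy5 and -0.24 with treated RNA in Cy3, a dye effect of 0.19 (limma, adjusted p = 0.107). Neither passed the test of the dye effect, which 0.142% of all genes passed. The Slc7a1 probe with 1 array at 0 averaged -1.76 with treated RNA in Cy5 and 1.67 with treated RNA in Cy3, a dye effect of -1.72, and this difference was not tested.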

How the results depend on the processing

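Of 323 member ratios recomputed, 305 stayed on the same side of the threshold, 11 lost the call and 7 gained it. No member past the threshold changed sign (0 cases), whereas ratios of members that did not pass changed sign in 15 cases (Got1, Hars, Psat1, Slc1a5, Slc7a1 and Wars), to at most 0.16 in size. Cars, Nars, Asns, Psph, Shmt2, Mthfd2, Slc1a4 and Sesn2, 8 of the 12 members that passed, did so in every alternative run. Farsb, Vars, Slc3a2 and Slc7a5 did not, and the cause was not tested. No such counts over all genes are given beside these, so they do not set the members apart from other genes. With zeros kept, 1576 genes passed, 634 of them lower, and 1407 probes. Without each set in turn, the genes lower in treated cells numbered 747 to 886 and the probes that passed 2191 to 2655. With treated RNA in Cy5 only, 1 of 23 members was lower (Shmt2), where 813 of 9160 genes were lower. Stress response genes that were higher numbered 12 of 18 in the main fit and 9 of 20 with zeros kept, where 942 of 10698 genes were higher. With treated RNA in Cy5 only they numbered 9 of 18, where 926 of 9160 genes were higher. Stress response genes that were lower numbered 1 in the 6-array fit without a block (Cebpg, limma, adjusted p = 0.0385), 1 in that form of fit over probes that may lack arrays (Cebpg, which lacks none, limma, adjusted p = 0.0452) and 1 with treated RNA in Cy5 only (Eif2ak4). With the set as a replicate block, 2491 genes and 13 members passed, Lars was gained (limma, adjusted p = 0.0459) and Slc1a2 was lost (limma, adjusted p = 0.106); without the block, 3183 genes and 14 members passed. Only 3 sets limit what can be detected.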
